A study of Mus musculus with 2 samples.

Results

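Neutrophils of the spleen were taken from 1 pooled single-cell library of stimulated spleen cells and were chosen by their measured counts of unique molecular identifiers (UMIs), which count captured RNA molecules. A cell was selected on at least 200 genes, at most 10% mitochondrial UMIs, at least 20 UMIs of S100a8 and S100a9 together, no UMI of Csf1r, fewer than 10 UMIs of Mpo, Elane and Ctsg together, and no UMI of Cd79a, Ms4a1, Cd3d, Cd3e or Ncr1. These conditions left 103 of 16829 barcodes, or 0.631% (exact 95% binomial interval 0.515 to 0.765%) of the 16325 cells that passed the filters on genes and mitochondrial UMIs. Within them, 62 cells with at least 5 UMIs of Camp and Ngp together are called immature and 41 cells with fewer are called mature.

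The cells came from wild-type C57BL/6 mice, 8 weeks old in the labels, all of which had been sensitized against ovalbumin (OVA) on days 0 and 10. The 3 conditions were untreated allergic mice, the Standard desensitization with OVA in PBS on days 20, 22 and 24 and with OVA in Alum on days 40 and 60, and DCIR2-Fp, a fusion of OVA to an antibody against a dendritic cell receptor, on days 20, 22 and 24. On day 80, according to the methods of the study, mice were also challenged with OVA before the spleens were taken, and the spleen cells of every condition were stimulated for 3 h with PMA and ionomycin, sorted by CD11b into CD45+ fractions that were mixed in equal parts, and frozen before capture. All conditions, and all mice within them, entered 1 library with 4 hashtags (antibody-bound barcodes that mark the source of a cell), and the labels do not pair the hashtags with the conditions. The data therefore hold 1 sample with no replicates, no test was possible, and no condition was compared. The 16325 cells held 136380387 UMIs with a median of 6474 per cell. The intervals below are exact 95% intervals that cover counting error only.

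Neutrophils are short-lived phagocytes that form in the bone marrow and, in mice, also in the spleen. Their granules are filled in sequence during development: azurophil granules with Mpo, Elane and Prtn3 at the promyelocyte stage, specific granules with Ltf, Camp, Ngp and Lcn2 at the myelocyte stage, and gelatinase granules with Mmp9 later. The transcripts for these contents are largely switched off once the granule is made, while receptors for chemoattractants and for granulocyte colony-stimulating factor, such as Cxcr2 and Csf3r, are a mark of late stages. S100a8 and S100a9 encode the subunits of calprotectin, the main protein of the neutrophil cytosol.

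Camp and Ngp, which divided the cells, and Ltf, which did not enter the selection, all encode secreted granule proteins. The 3 genes are found within 1.20 megabases of chromosome 9 (GRCm38, GENCODE vM21), on chr9:109847379-109849617, chr9:110419747-110423012 and chr9:111019271-111042767. Csf3r, whose level was the reverse of theirs, lies on chr4:126024550-126044440. To show the start regions of genes that differed in opposite directions, the bases before these genes are printed 5′ to 3′ on the strand of the gene, from RefSeq on GRCm38.p6, and are restricted to the part of the 250 bases before the RefSeq start that lies outside the GENCODE gene. Capitals mark ATTGC or its reverse complement GCAAT, the half-site letters of C/EBP factors, which drive granulocyte genes. The windows are chr9:109849618-109849706 on the minus strand, chr9:110419558-110419746 on the plus strand, chr9:111019042-111019270 on the plus strand and chr4:126024409-126024549 on the plus strand.
Camp: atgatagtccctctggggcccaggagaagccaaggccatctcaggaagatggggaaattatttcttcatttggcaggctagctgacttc
Ngp: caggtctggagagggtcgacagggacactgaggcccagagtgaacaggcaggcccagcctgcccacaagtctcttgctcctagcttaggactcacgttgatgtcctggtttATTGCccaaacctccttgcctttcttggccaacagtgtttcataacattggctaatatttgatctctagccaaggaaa
Ltf: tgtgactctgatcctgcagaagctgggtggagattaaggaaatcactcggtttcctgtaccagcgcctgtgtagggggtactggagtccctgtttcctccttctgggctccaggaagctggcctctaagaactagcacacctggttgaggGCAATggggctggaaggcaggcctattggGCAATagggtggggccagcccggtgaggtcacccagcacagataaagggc
Csf3r: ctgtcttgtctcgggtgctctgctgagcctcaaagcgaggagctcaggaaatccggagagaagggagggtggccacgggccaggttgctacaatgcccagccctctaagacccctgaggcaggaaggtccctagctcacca

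The letters occurred 1 time before Ngp and 2 times before Ltf, and in the printed stretches before Camp and Csf3r they did not occur. Over the whole 250 bases, both Camp and Csf3r held 1 match. Of all 32851 promoters of that length, 23.1% held the letters on either strand, against 5 of the 10 matched promoters of a list of 13 specific granule genes and 6 of the 15 matched promoters of a list of 16 maturation genes. The letters therefore occurred before genes that were higher in either group, and a match is a description and not a binding site.

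The label of the cells was checked against markers that the choice did not use. Of Csf3r, Cxcr2, Hdc, Il1r2 and Retnlg, genes of neutrophils and their late precursors, at least 3 were detected in 48 of the 62 immature and 38 of the 41 mature cells, and at least 2 in all 41 mature cells. At least 3 were detected in 0.172% of 1165 cells with Cd79a and Ms4a1 (called B cells here) and in none of 118 cells with Csf1r and Lyz2 but few S100a8 and S100a9 UMIs. The 50 cells with Mpo, Elane and Ctsg, which are nearest in kind and have a median of 35566 UMIs, lay between, with at least 3 in 22% and at least 2 in 50% of cells. Ly6g, the antigen used to gate mouse neutrophils, had 69 UMIs in 26 immature and 4 UMIs in 3 mature cells, and no B cell held any. Both groups thus carried granulocyte transcripts, although Ly6g itself was sparse.

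Depth differed between the groups and bears on every share of cells with a UMI. Immature cells had between 917 and 43571 UMIs with a median of 15900, and mature cells between 826 and 17393 with a median of 2774. The median number of genes was 3344 in immature and 1222 in mature cells, and the median mitochondrial share 0.883% and 0.363%. The 2 groups overlapped in depth, but the median mature cell held fewer UMIs than the lower quartile of immature cells, 8569. Less RNA per cell and poorer capture cannot be told apart here, so levels are given as CPM, the UMIs of a gene per 1000000 summed UMIs of a group, with the interval in parentheses.

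The values that chose the cells are given as a description. S100a8 and S100a9 together had between 84 and 9551 UMIs in immature cells, with a median of 3543, and between 20 and 778 in mature cells, with a median of 161. They took 20.9% of the summed UMIs of immature cells and 5.46% of those of mature cells. Camp and Ngp together had a median of 864 UMIs per immature cell, while 33 of the 41 mature cells had none. The immature cells nearest the limit had 9, 10 and 19 UMIs and the mature ones 4, 3 and 2, and in all 8 immature cells had fewer than 100. At the limit of S100a8 and S100a9, the lowest neutrophils had 20, 25 and 25 UMIs, and the highest cells left out had 15, 15 and 14. B cells, which do not make these transcripts, held S100a8 at 27.0 CPM and Camp at 4.02 CPM, against 93646 and 21167 CPM in immature cells and 23545 and 36.5 CPM in mature cells.

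Maturity and hashtag were nearly the same division. A hashtag was called where its count over its lower quartile among all cells led the next hashtag by at least 1 on the log2 scale. Of the mature cells, 37 carried hashtag 11, 1 carried hashtag 12 and 3 had no call, and none carried hashtag 9 or 10. Of the immature cells, 21 carried hashtag 9, 7 hashtag 10, 4 hashtag 11, 9 hashtag 12, and 21 had no call. The median count of hashtag 11 was 56 in mature and 10 in immature cells, against 10 in all cells, and the median count of hashtag 9 was 189 in immature and 95 in mature cells. What sets mature cells apart from immature ones and what sets hashtag 11 apart from the other hashtags cannot be told apart, except within the 41 neutrophils of hashtag 11.

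**Figure D1:**
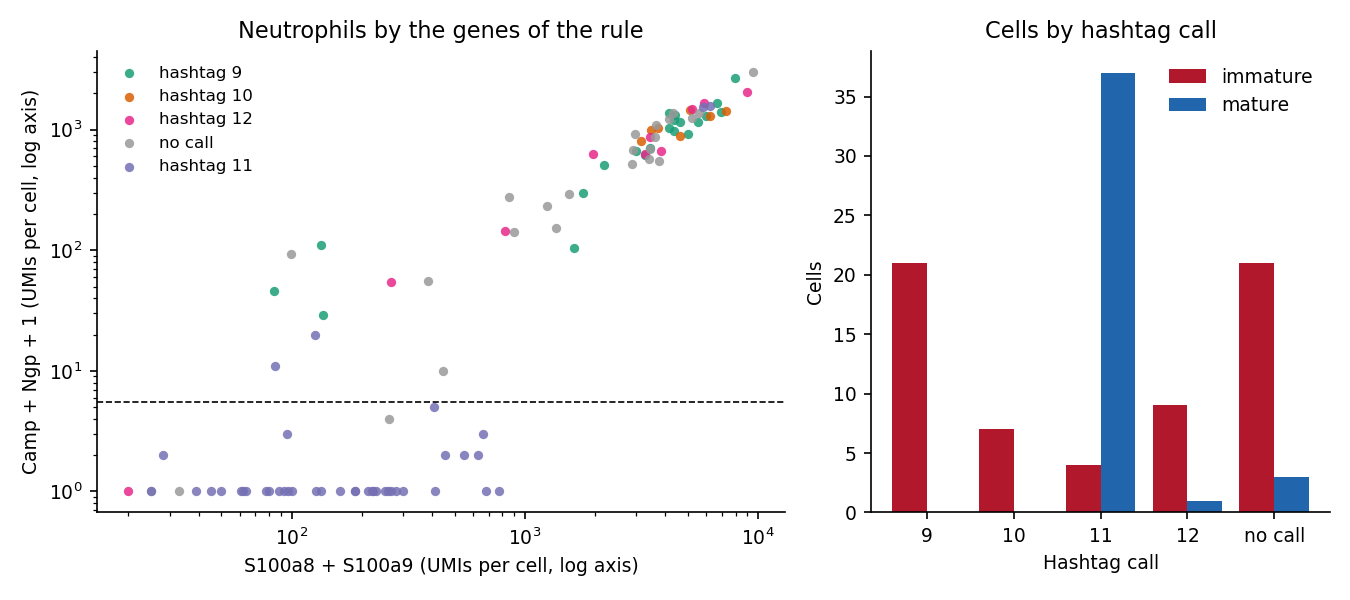
Left, the UMIs of S100a8 and S100a9 together (log axis) against those of Camp and Ngp together plus 1 (log axis) in each of the 103 neutrophils, coloured by hashtag call, with the limit between mature and immature cells as a dashed line. Right, the number of immature and mature cells under each call, where 37 of the 41 mature cells stand under hashtag 11 and 21 of the 62 immature cells under hashtag 9.

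Among cells with a hashtag call, neutrophils were also unevenly spread. Neutrophils made up 2.35% (1.46 to 3.56%) of the 895 cells of hashtag 9, 0.249% (0.1004 to 0.513%) of the 2806 of hashtag 10, 1.31% (0.940 to 1.77%) of the 3134 of hashtag 11 and 0.353% (0.169 to 0.648%) of the 2833 of hashtag 12. These shares leave out 6657 cells without a call, of which 24, or 0.3605% (0.231 to 0.536%), were neutrophils. Cells without a call had a median of 5329 UMIs, against 10507, 8288, 7008 and 6844 under hashtags 9, 10, 11 and 12. The cells with Mpo, Elane and Ctsg made up 2.12%, 0.249%, 0.319% and 0.282% of the cells under hashtags 9, 10, 11 and 12, and the cells with Csf1r and Lyz2 2.01%, 0.784%, 1.47% and 0.812%. Among the 4 hashtags, hashtag 9 thus had the highest share in all 3 groups of myeloid cells. Hashtags 10 and 12 were close in the last 2 groups, with 7 and 8 cells with Mpo, Elane and Ctsg and 22 and 23 cells with Csf1r and Lyz2. The median UMIs of neutrophils were 19804, 21909, 2805 and 11105 under hashtags 9, 10, 11 and 12, and those of B cells 13514, 11442, 11276 and 10390. The part of depth in the results was not tested.

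Against this background, immature and mature neutrophils differed widely. Of 3528 genes outside the selection with at least 50 UMIs over the neutrophils, 751 (21.3%) were at least 2-fold higher in immature cells by summed CPM and 836 (23.7%) at least 2-fold higher in mature cells. With the further demand that the counting interval of the ratio exclude equality, 637 (18.1%) and 829 (23.5%) remained. The median gene had a log2 ratio of -0.10, immature to mature. S100a8, S100a9, Camp and Ngp took 26.0% of the UMIs of immature cells and 5.46% of those of mature cells, and without them in the totals every log2 ratio was higher by 0.35, which gave 1025 genes higher in immature and 593 higher in mature cells so that genes higher in immature cells made up 63.4% of these genes in place of 47.3%. The lists of genes below are set beside these background shares, and no list was tested.

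Specific granule genes had the highest median ratio of immature to mature of all 21 lists. Of the 11 genes of that list that had enough UMIs and were outside the selection, 9 were at least 2-fold higher in immature cells and 1 in mature cells, with a median log2 ratio of 3.57. Ltf, which encodes the iron-binding protein lactoferrin, had 4035 CPM (3915 to 4158) in immature and 18.3 CPM (3.77 to 53.4) in mature cells, a ratio of 221 (75.5 to 1072) that rests on 3 mature UMIs. Per 10000 UMIs, Ltf ranged from 0 to 84.6 with a median of 37.4 over immature cells and from 0 to 3.57 with a median of 0 over mature cells. The groups overlapped only through the immature cells of lowest Ltf, of which 2 had no Ltf UMI.

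Lcn2, the siderophore-binding lipocalin, had 7144 CPM in immature and 262 CPM in mature cells, 27.3-fold higher (20.2 to 37.7). Its per-cell level ran from 0 to 188 per 10000 UMIs, median 65.7, in immature and from 0 to 29.5, median 0, in mature cells, where 17 of the 41 held a UMI. Chil3, a chitinase-like lectin, was 152-fold higher (69.7 to 414) in immature cells with 5545 CPM. Fcnb, a ficolin of early neutrophils that starts the lectin pathway of complement, had 603 UMIs in immature cells and 1 in mature cells, a ratio of 93.5 (16.7 to 3698). None of these 4 genes was read by the selection, and in mature cells Ltf, Chil3 and Fcnb had at most 6 UMIs each while Lcn2 was lower but still present.

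The acute-phase transport protein Orm1 had 1006 UMIs in immature cells and none in mature cells, a ratio of 52.0 with 3 UMIs over the mature group as the floor. Cd177, a surface antigen of neutrophils, was 11.9-fold higher (5.43 to 32.6) and Wfdc21 5.21-fold higher (4.09 to 6.73). Olfm4, which marks a subset of neutrophils, had 307 UMIs in only 6 of the 62 immature cells. The list did not move as a block. Hp, haptoglobin, had 620 CPM in immature and 627 CPM in mature cells, and Mmp8, the neutrophil collagenase, had 48.1 CPM in immature and 177 CPM in mature cells.

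Of the azurophil granule list, 5 genes were measured outside the selection, of which 4 were at least 2-fold higher in immature and 1 in mature cells. With the counting interval past equality as well, 3 and 1 remained, without Ctsc at a ratio of 2.015 on 78 against 6 UMIs. Prtn3, proteinase 3, had 151 UMIs in 22 immature cells and Ms4a3, a surface protein of granulocyte progenitors, 159 UMIs in 29 immature cells. Neither had a UMI in mature cells, and at the floor of 3 UMIs the ratios were 7.80 and 8.22. Both met the minimum of UMIs through immature cells alone and so had to pass, and their calls add nothing to these counts. Serpinb1a, the inhibitor that keeps the serine proteases of these granules in check, was 46.7-fold higher (8.31 to 1849) on 301 UMIs against 1. Srgn, the proteoglycan that packs granule proteins, went the other way with 2793 CPM in immature and 7434 CPM in mature cells. In the gelatinase granule list none of 4 genes was 2-fold higher in immature cells and 3 were in mature cells, or 1 and 3 with S100a8, S100a9, Camp and Ngp out of the totals. Mmp9, gelatinase B, had 33.0 CPM (23.0 to 45.9) in 15 immature cells and 359 CPM (274 to 463) in 25 mature cells, 10.9-fold higher (7.04 to 17.0) in the latter. Slpi, a secreted protease inhibitor, was 6.72-fold higher (5.61 to 8.04) in mature cells.

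Most maturation genes were higher in mature cells. Of 15 measured genes of that list, 11 were at least 2-fold higher in mature cells and 1 in immature cells, with a median log2 ratio of -2.14. With S100a8, S100a9, Camp and Ngp out of the totals, 10 were higher in mature and 1 in immature cells. Csf3r, the receptor for granulocyte colony-stimulating factor, had 35.9 CPM (25.4 to 49.2) in immature and 1072 CPM (919 to 1242) in mature cells, 29.9-fold higher (20.9 to 43.6). Per 10000 UMIs it ran from 0 to 2.40 with a median of 0 over immature and from 0 to 106 with a median of 10.6 over mature cells, so that most mature cells stood above every immature cell. A UMI of Csf3r was present in 78.0% of mature and 30.6% of immature cells, against 0.687% of B cells with a median of 10985 UMIs. After each cell was thinned to 1000 UMIs, which left out 1 immature and 2 mature cells, the shares were 56.4% and 1.64%.

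The decoy receptor for interleukin 1, Il1r2, had 166 CPM in immature and 1961 CPM in mature cells, 11.8-fold higher (9.79 to 14.3). Cxcr2, the receptor that draws neutrophils out of the marrow, had 69.8 and 274 CPM. Ccl6, a chemokine of myeloid cells, showed the largest ratio of the maturation list, with 4 UMIs in 3 immature cells and 171 UMIs in 35 mature cells. It was 276-fold higher (106 to 1024) in mature cells, and its level per 10000 UMIs reached 3.90 in immature and had a median of 10.6 in mature cells. Retnlg, Mxd1 and Ifitm3 differed less than 2-fold, with 2067 and 3264 CPM for Retnlg. Ifitm6 was the exception to the list, at 725 CPM in immature and 85.2 CPM in mature cells, while its neighbours in the family Ifitm1 and Ifitm2 were 62.8-fold (33.7 to 130) and 6.64-fold (5.66 to 7.80) higher in mature cells.

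**Figure D2:**
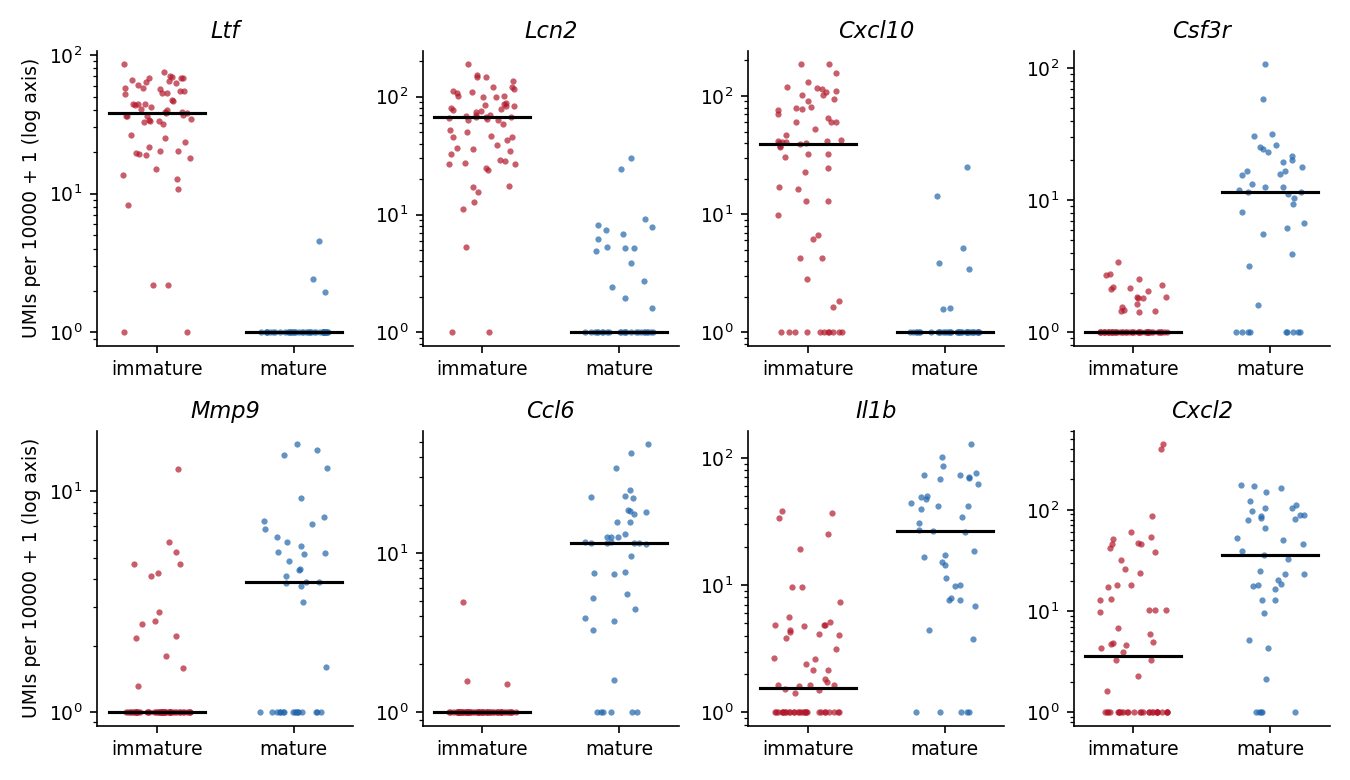
Level of 8 genes in each of 62 immature and 41 mature neutrophils, as UMIs per 10000 UMIs of the cell plus 1 on a log axis, with the median as a bar. Ltf, Lcn2 and Cxcl10 stand higher in immature cells, and Csf3r, Mmp9, Ccl6, Il1b and Cxcl2 in mature cells, with cells at 0 in both groups.

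The 41 neutrophils of hashtag 11 gave the only comparison within a hashtag, and it holds 4 immature cells against 37 mature cells. Those 4 immature cells had 10, 19, 1532 and 1567 UMIs of Camp and Ngp, and the pair of low cells had far fewer UMIs in all than the pair of high ones. Ltf had 2581 CPM (2209 to 2996) in the 4 immature and 19.2 CPM (3.97 to 56.2) in the 37 mature cells of this hashtag. Csf3r had 105 CPM (42.2 to 216) and 1065 CPM (909 to 1240), Mmp9 135 CPM (61.7 to 256) and 379 CPM (288 to 488), and Il1b 270 CPM (160 to 427) and 3016 CPM (2749 to 3301). In the 4 immature cells, all 7 Csf3r UMIs, 6 of 9 Mmp9 UMIs and 15 of 18 Il1b UMIs lay in 1 cell. That cell had 39693 UMIs, with 1532 of Camp and Ngp and 31 of Mki67. These values are no separate check of the mature cells, since 37 of the 41 mature cells of the whole comparison are the same cells. With at least 50 UMIs in hashtag 11, 53 list genes were at least 2-fold higher in mature cells over the whole. All 53 had the same direction here. The same count was not made over all measured genes, so it cannot be read as a trait of the list genes. Of the 17 list genes with at least 50 UMIs in hashtag 11 that were at least 2-fold higher in immature cells over the whole, 3 were not higher in immature cells here, namely Ccl3 with 180 CPM (93.0 to 314) against 943 CPM (797 to 1109), Cd14 with 165 against 269 CPM and Gbp2 with 375 against 456 CPM. These genes were chosen after their values were seen. Mature cells outside hashtag 11 were too few for the reverse check. The 3 without a call, at 1503, 4374 and 1568 UMIs, held no UMI of Csf3r or Mmp9. The 1 of hashtag 12, at 943 UMIs, held 10 of Csf3r and none of Mmp9, so every mature Mmp9 UMI lay in hashtag 11.

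Chemoattractant and pattern receptors divided between the groups, with 4 of 10 measured genes at least 2-fold higher in each, or 5 in immature and 2 in mature cells with S100a8, S100a9, Camp and Ngp out of the totals. The formyl peptide receptor Fpr2 had 243 CPM in immature and 36.5 CPM in mature cells, and the lipopolysaccharide co-receptor Cd14 833 and 292 CPM, although within hashtag 11 it was lower in immature cells. C5ar1, the receptor for the complement fragment C5a, had 155 CPM in immature and 511 CPM in mature cells, and the platelet-activating factor receptor Ptafr 73.6 and 213 CPM. The 4 receptors named here therefore stood on both sides. Of 8 measured adhesion genes, 2 were higher in each group, with a median log2 ratio of -0.22. With S100a8, S100a9, Camp and Ngp out of the totals the median was 0.14, and 2 were higher in immature and 1 in mature cells. Ly6c2, an antigen of monocytes and young neutrophils, was 12.3-fold higher (6.84 to 24.7) in immature cells. Selplg, the ligand of P-selectin, was below the minimum of 50 UMIs with 14 UMIs in immature and 31 in mature cells. Itgam, which encodes the CD11b used in the sort, had 554 and 652 CPM.

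The NADPH oxidase, the enzyme that produces superoxide in the phagosome, was uneven in its subunits. Cybb, its catalytic membrane subunit, had 2218 CPM (2129 to 2309) in immature and 73.1 CPM (37.8 to 128) in mature cells, 30.4-fold higher (17.3 to 58.8), and was detected in 61 of 62 and 8 of 41 cells. Its membrane partner Cyba differed by 1.85-fold (1.51 to 2.30). Ncf1, a cytosolic subunit, had 461 and 268 CPM. In all, 1 of the 6 genes was at least 2-fold higher in each group and 4 lay between. With S100a8, S100a9, Camp and Ngp out of the totals, 4 were higher in immature cells and none in mature cells.

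Inflammatory mediators separated by gene. Il1b, the interleukin that starts fever and neutrophil recruitment, had 300 CPM (268 to 335) in immature and 2959 CPM (2702 to 3234) in mature cells, 9.86-fold higher (8.54 to 11.4). Per 10000 UMIs it had a median of 0.556 and a highest value of 37.2 in immature cells, and a median of 25.5 and a highest value of 127 in mature cells. The groups overlapped, since 5 mature cells had no Il1b UMI. Cxcl2, a chemokine that acts on Cxcr2, had 1567 CPM in immature and 4384 CPM in mature cells, 2.80-fold higher (2.56 to 3.06). Ccl3, a chemokine of activated myeloid cells, had 2291 and 1017 CPM, although within hashtag 11 it was lower in immature cells, and Tnf 153 and 183 CPM.

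Il10, a cytokine that restrains inflammation, was sparse in neutrophils, with 29 UMIs in 16 of 103 cells and 23.7 CPM (15.9 to 34.0). Immature cells had 21 UMIs in 10 cells, 8 of them in 1 cell, at 19.8 CPM (12.3 to 30.3). Mature cells had 8 UMIs in 6 cells at 48.7 CPM (21.0 to 96.0), and 3 of the 8 lay in 1 cell that also held 131 UMIs of Cd74. The ratio of mature to immature was 2.46 with an interval of 0.941 to 5.78, so no difference was detectable at this depth. All 6 mature cells with Il10 carried hashtag 11, and the immature ones carried hashtag 9 in 6 cells and hashtag 10 in 3, 1 had no call, and none carried hashtag 11 or 12. B cells had 82.5 CPM of Il10, with a UMI in 22.6% of cells at a median of 10985 UMIs, against 16.1% of immature and 14.6% of mature cells. The part of free RNA from other cells in these counts was not tested.

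Of 10 measured cytokine and chemokine genes, 2 were at least 2-fold higher in immature and 3 in mature cells, with a median log2 ratio of -0.24. With S100a8, S100a9, Camp and Ngp out of the totals the median was 0.11, and 3 were higher in immature and 2 in mature cells. Il12a, a subunit of interleukin 12, had 59 UMIs in 20 immature cells and 1 in mature cells. Il6 was listed at 0 in both groups, and Cxcl1 had 1 UMI in each. Spp1, osteopontin, which is outside the list and was chosen after its values were seen, had 2856 CPM in immature cells, and 106 of its 110 mature UMIs came from 1 cell. Under hashtags 9, 10 and 12 immature cells had 3246, 3547 and 576 CPM of Spp1, and the 4 immature cells of hashtag 11 had no UMI of it against 3 UMIs in the 37 mature cells. Of 5 lipid mediator genes measured, 4 were higher in mature cells, among them Ptgs2, the inducible cyclooxygenase, at 67.0 against 621 CPM, and Alox5, the 5-lipoxygenase of leukotriene synthesis, at 68.0 against 183 CPM. Lta4h, the hydrolase that makes leukotriene B4, was the member higher in immature cells, at 164 against 60.9 CPM.

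Cxcl10, a chemokine for T and NK cells that interferon induces, had the highest ratio of immature to mature among the 7 Ccl and Cxcl genes with at least 50 UMIs. It had 6321 UMIs in 51 of 62 immature cells and 9 UMIs in 7 of 41 mature cells, which is 5966 CPM (5820 to 6115) against 54.8 CPM (25.1 to 104), 109-fold higher (57.3 to 238). Per 10000 UMIs its level ran from 0 to 185 with a median of 38.5 in immature cells. Under hashtags 9, 10 and 12 immature cells had 5909, 5233 and 8368 CPM, and under hashtag 11 the 4 immature cells had 1320 CPM (1059 to 1627), with 86 of their 88 UMIs in 1 cell. The high level was therefore present under each of the first 3 hashtags. Cells with Mpo, Elane and Ctsg had 7128 CPM, cells with Csf1r and Lyz2 1472 CPM and B cells 129 CPM.

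The interferon response list, which includes Cxcl10, was divided. Of its 7 measured genes, 2 were higher in immature cells, Cxcl10 itself and Gbp2, and 3 in mature cells, with a median log2 ratio of -0.47, and 3 were higher in each group with S100a8, S100a9, Camp and Ngp out of the totals. Gbp2, a guanylate-binding GTPase, was 2.51-fold higher (2.04 to 3.12) in immature cells, although 56 of its 95 mature UMIs lay in 1 cell and it was not higher in the immature cells of hashtag 11. Isg15, a ubiquitin-like protein, had 126 CPM in immature and 402 CPM in mature cells, and Slfn1 81.2 and 286 CPM. Rsad2, the antiviral protein viperin, had 17 UMIs in 7 immature and 45 UMIs in 12 mature cells, 17.1-fold higher (9.58 to 31.8) in the latter. Ifit1, Ifit3 and Oasl1 of the same list had 5, 4 and 24 UMIs over all neutrophils and were not measured by this minimum.

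**Figure D3:**
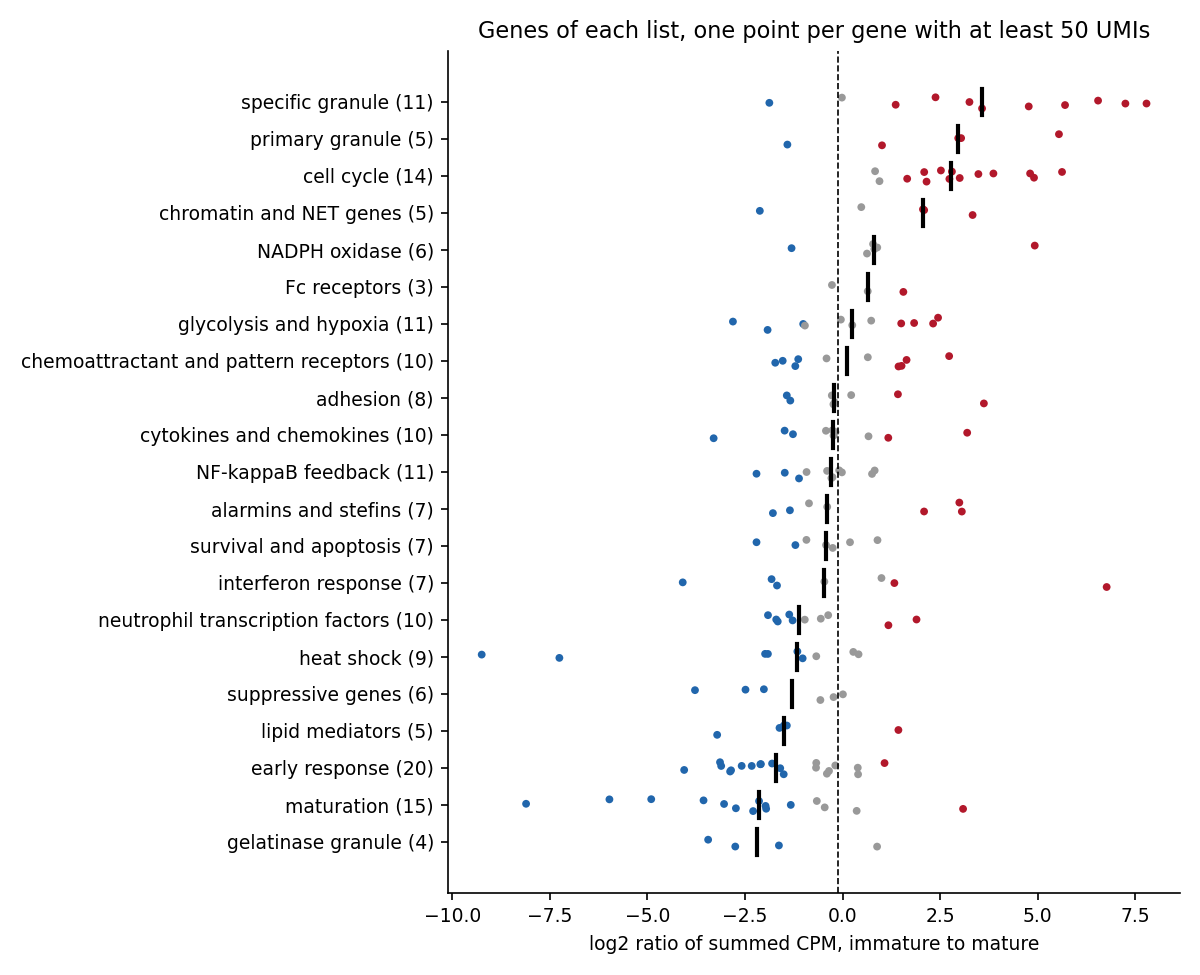
Log2 ratio of summed CPM, immature to mature, of each gene with at least 50 UMIs in 21 lists, with the number of such genes in parentheses, the median of the list as a bar and the median of all genes, -0.10, as a dashed line. Red points are at least 2-fold higher in immature and blue points in mature cells. Genes without a UMI in mature cells are drawn at the floor of 3 UMIs. Specific granule genes have a median of 3.57 and maturation genes one of -2.14.

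Among neutrophil transcription factors, 2 of 10 measured genes were at least 2-fold higher in immature and 5 in mature cells. With S100a8, S100a9, Camp and Ngp out of the totals, 2 were higher in immature and 4 in mature cells. Cebpe, the factor that switches on specific granule genes, had 72 UMIs in 29 immature cells and none in mature cells, a ratio of 3.72 at the floor of 3 UMIs. With no mature UMI it had to pass once it met the minimum, so its call adds nothing to these counts. Cebpb, a factor of emergency granulopoiesis and of mature cells, had 326 CPM in immature and 1224 CPM in mature cells, 3.76-fold higher (3.14 to 4.49). Spi1, which encodes PU.1, had 150 and 487 CPM. Cebpe and Cebpb therefore stood on opposite sides. Cebpd, another member of the C/EBP family on the list, lay within 2-fold with 57 UMIs in immature and 13 in mature cells, and Cebpa had 8 UMIs in all and Gfi1 7.

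The early response genes, which PMA and ionomycin induce within minutes to hours, were mostly higher in mature cells. Of 20 measured, 12 were at least 2-fold higher in mature and 1 in immature cells, with a median log2 ratio of -1.70. Atf3, a stress-induced factor, had 47.2 CPM in immature and 786 CPM in mature cells, 16.6-fold higher (11.9 to 23.6). Btg2 was 7.36-fold higher (5.84 to 9.29), Junb 4.26-fold higher (3.63 to 4.99) and Egr1 3.02-fold higher (2.62 to 3.49). Jun, with 525 and 597 CPM, and Zfp36, with 335 and 426 CPM, differed less. Of 11 feedback genes of NF-kappaB, 3 were higher in mature cells and none in immature cells, with a median log2 ratio of -0.29. With S100a8, S100a9, Camp and Ngp out of the totals the median was 0.07 and 2 genes were higher in each group. Among the 3 was Nfkbia, the inhibitor that NF-kappaB induces against itself, at 585 and 1632 CPM.

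The lists of metabolism and survival gave mixed values. Of 11 measured genes of glycolysis and hypoxia, 4 were higher in immature and 3 in mature cells, or 5 and 2 with S100a8, S100a9, Camp and Ngp out of the totals. The glycolytic enzymes Ldha (274 and 54.8 CPM) and Gapdh (846 and 298 CPM) were higher in immature cells. Slc2a3, a glucose transporter (114 and 432 CPM), and Pfkfb3, which makes the activator of phosphofructokinase (33.0 and 231 CPM), were higher in mature cells. Of 7 survival genes, 2 were higher in mature cells and none in immature cells, but 1 in each with S100a8, S100a9, Camp and Ngp out of the totals, and Mcl1, on which neutrophil lifespan depends, had 606 and 1151 CPM. Of 6 genes associated with suppressive neutrophils, 3 were higher in mature cells, with Wfdc17 13.7-fold higher (9.86 to 19.4). Cd274, which encodes PD-L1, had 607 and 603 CPM.

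Of 7 measured alarmin and stefin genes, 3 were higher in immature and 2 in mature cells, or 3 and 1 with S100a8, S100a9, Camp and Ngp out of the totals. Stfa1 and Stfa3, cysteine protease inhibitors encoded by a cluster of near-identical genes whose reads may be split between copies, had 161 and 154 UMIs in immature cells and none in mature cells. S100a6 and S100a11, relatives of calprotectin, were instead higher in mature cells, at 868 against 2990 CPM and 1308 against 3331 CPM. Among Fc receptors, 1 of 3 measured genes was at least 2-fold higher in immature cells. This was the inhibitory receptor Fcgr2b, with 57 UMIs against none and a ratio of 2.94 at the floor of 3 UMIs. A gene at 0 in mature cells that met the minimum of UMIs always passed at that floor. The calls therefore add nothing to the counts of Fcgr2b, Stfa1 and Stfa3 themselves. Of 9 heat shock genes, 6 were higher in mature cells, or 4 with S100a8, S100a9, Camp and Ngp out of the totals, led by Hspa1a, of whose 94 mature UMIs 83 lay in 1 cell and whose level was 572 CPM with that cell and 68.0 CPM without it.

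Most cell cycle genes were higher in immature cells. Of 14 measured, 12 were at least 2-fold higher in immature cells and none in mature cells, with a median log2 ratio of 2.77. With S100a8, S100a9, Camp and Ngp out of the totals, all 14 were higher in immature cells. Mki67, the marker of cycling nuclei, had 541 UMIs in 38 immature cells and Top2a, the topoisomerase of replicating chromosomes, 580 UMIs in 37. Over the list of 15, mature cells held 38 UMIs in 21 of 41 cells, of which 23 were of Pcna, the sliding clamp of DNA polymerase. In mature cells 8 of the 15 genes had no UMI. The minimum of UMIs was thus met mainly by immature cells, and any measured gene at 0 in mature cells passed at the floor. For such genes the count of 12 adds nothing to the absence of mature UMIs. Neither Mki67 nor Top2a had a UMI in the 41 mature cells. There the floor of 3 UMIs is 18.3 CPM, and at that floor the ratios of immature to mature were 28.0 and 30.0. Of 5 chromatin genes, 3 were higher in immature cells, among them H2afz (3496 and 347 CPM), and Lmnb1, a lamin of the nuclear envelope, was 4.34-fold higher (3.61 to 5.22) in mature cells.

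The immature cells were themselves of more than 1 kind. With Mki67 and Top2a counted together, 34 cells had at least 5 UMIs (called cycling), 23 had none and 5 lay between. Cycling cells were deeper, with a median of 23333 UMIs against 8330, and both kinds were found under every hashtag, with 14, 5, 2 and 4 cycling and 7, 1, 2 and 3 non-cycling cells under hashtags 9, 10, 11 and 12. This division was drawn after values had been seen and is a description. Of the 243074 UMIs of the 23 non-cycling cells, 30628 lay in 1 cell that also held 78 of their 95 Cd74 UMIs. The part of that cell in the values below was not tested.

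Genes of early granules were divided between the kinds. Fcnb had 691 CPM (633 to 753) in cycling and 98.7 CPM (63.3 to 147) in non-cycling immature cells, 7-fold higher (4.65 to 11.03). Prtn3 had 134 UMIs in cycling cells and 2 in non-cycling cells, a ratio of 21.4 (5.82 to 179), and Cebpe 62 and 2 UMIs. Srgn went the other way, with 2175 CPM in cycling and 5040 CPM in non-cycling cells. Mpo, Elane and Ctsg, which the selection limits, had 3, 27 and 16 UMIs in cycling and 3, 1 and 2 UMIs in non-cycling cells. Ltf and Lcn2 did not share the difference of Fcnb and Prtn3, with 4076 and 3978 CPM for Ltf and 7053 and 7368 CPM for Lcn2. Cxcl10 had 7716 CPM (7520 to 7916) in cycling cells, where all 34 held it, and 1238 CPM (1102 to 1386) in non-cycling cells, where 14 of 23 did. The part of depth in this division, which was made on unthinned counts, was not tested.

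Several other genes were higher in the non-cycling cells. Retnlg, a resistin-like secreted protein, had 782 CPM (720 to 848) in cycling and 6220 CPM (5911 to 6542) in non-cycling cells, 7.95-fold higher. Ly6g had 23.7 and 189 CPM, Mmp8 17.1 and 152 CPM, and Mmp9 10.5 and 107 CPM. Cxcl2 had 783 and 4377 CPM, and Ccl3 1621 and 4653 CPM. Spp1 had 1825 and 6739 CPM. Not all late genes did this. Csf3r and Ccl6, which were high in mature cells, were low in both kinds, with Csf3r at 40.8 CPM (27.7 to 57.9) in cycling and 20.6 CPM (6.68 to 48.0) in non-cycling cells. The non-cycling immature cells therefore stood nearer than the cycling ones to mature cells in Mmp9, but not in Csf3r.

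**Figure D4:**
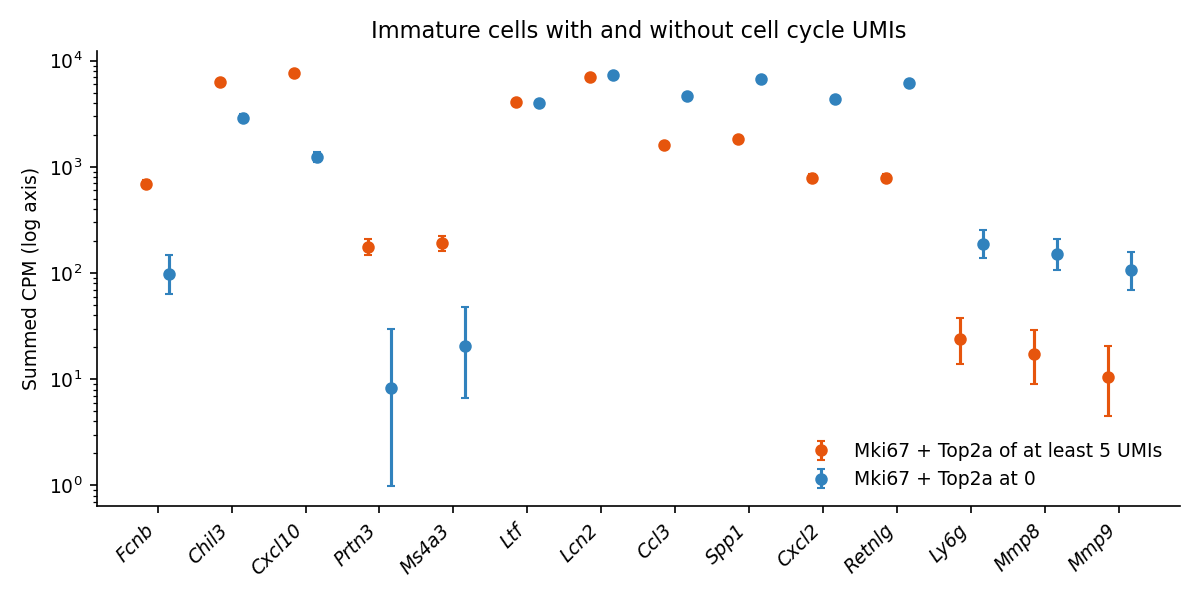
Summed CPM (log axis) of 14 genes in 34 immature neutrophils with at least 5 UMIs of Mki67 and Top2a and in 23 with none, with exact 95% Poisson intervals as bars. Fcnb, Chil3, Cxcl10, Prtn3 and Ms4a3 are higher in the cycling cells, Ltf and Lcn2 lie close together, and Ccl3, Spp1, Cxcl2, Retnlg, Ly6g, Mmp8 and Mmp9 are higher in the non-cycling cells.

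Some genes outside the selection stood far above all 16222 other cells. Fpr1, a formyl peptide receptor, had 58.8 CPM in neutrophils and 0.192 CPM elsewhere, a ratio of 306, followed by Olfm4 (300), Siglece, an inhibitory lectin (251), Ly6g (230), Lcn2 (227), Fpr2 (220), Cstdc4 (210), Ltf (208) and Slfn4 (184). The remaining genes of the first 15, Chil1, Ifitm6, Ankrd22, Mmp9, G0s2 and Il1f9, had ratios from 154 to 169. Not all were even within neutrophils: Fpr1 and Mmp9 were higher in mature cells, and Lcn2, Ltf and Ifitm6 in immature cells.

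Against the 50 cells with at least 10 UMIs of Mpo, Elane and Ctsg, transcripts of the azurophil stage, Stfa2l1 (420-fold), Retnlg (179-fold), Hspa1a (144-fold), Fpr1 (109-fold) and Plbd1 (104-fold) were highest, where Hspa1a rests on the 1 mature cell named above. Stfa2l1, Hspa1a and Fpr1 each had only 1 UMI in those 50 cells. Outside the selection, the lowest were Prtn3 (2807 CPM there against 123 CPM), Iigp1, Calr, Serpina3g and Ifi203. Ltf had 196 CPM, Lcn2 557 CPM and Fcnb 364 CPM in those cells, against 4035, 7144 and 569 CPM in immature neutrophils and 18.3, 262 and 6.09 CPM in mature ones. Both Ltf and Lcn2 were therefore highest in immature neutrophils among these 3 groups, and Fcnb differed less between the first 2.

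For the 10 highest ratios of immature to mature outside the selection, the 93 genes at 0 in mature cells were ranked by the floor of 3 UMIs. Genes among them not named so far were AW112010, with 708 UMIs against none, Hist1h1e and Tubb5, a histone and a tubulin of dividing cells, at 303 and 300 CPM against 1 UMI each, and Serpina3f. Among the 10 lowest, Mylip, a ubiquitin ligase, was 109-fold higher (57.8 to 232) in mature cells with 169 UMIs in 26 cells, and H2-Q10, a class I gene whose reads may be shared with its paralogs, 56.2-fold higher (25.7 to 146) in 28 cells. P2rx7, the ATP-gated channel upstream of interleukin 1 release, was 61.0-fold higher (34.4 to 118), but its 123 UMIs lay in 7 cells. Errfi1 and Rnaseh2a had 61 and 59 UMIs in 17 cells each, and 33 of the 52 mature UMIs of Ifi207 and 51 of the 71 of Hspa1b lay in 1 cell.

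Transcripts of other cell types were present at levels that differed by list. Of 6 T cell markers, 3 were at 0 in immature and 4 in mature cells, Cd3d and Cd3e by the selection and Cd3g without it, with 11 and 4 UMIs in sum. Of 5 NK cell markers, immature cells had 112 UMIs, or 106 CPM against 2243 CPM in all other cells, led by Nkg7 with 54 UMIs, and mature cells had 4 UMIs. Of 7 B cell markers, the sum was 210 CPM in immature and 1224 CPM in mature cells against 5312 CPM in all other cells, led by Cd74 in both. Of the 170 mature UMIs of Cd74, 131 lay in 1 cell, and of its 146 immature UMIs 78 lay in 1 cell and 45 in another. Cd79b was at 0, as were Cd79a and Ms4a1 by the selection. The part of transcripts of other cell types in the results was not tested.

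Of 9 monocyte and macrophage markers, the sum was 27.4 CPM in immature and 244 CPM in mature cells, led by Adgre1 and by Cx3cr1. All other cells had 83.0 CPM, so mature cells stood above that level. Csf1r, C1qa and Fn1 were at 0 in both groups, the first by the selection. Cx3cr1, a receptor of patrolling monocytes, had 16 UMIs in 13 mature cells, and Itgax, which encodes CD11c and belongs to the list of 7 dendritic cell markers, 28 UMIs in 14. Flt3, Xcr1, Cd209a and Siglech of that list were at 0 in both groups. Its sum was 53.8 and 530 CPM, against 819 CPM in all other cells, led by H2-Ab1, of whose 55 mature UMIs 45 lay in 1 cell. The 5 basophil and mast cell, 5 erythroid and 4 platelet markers were at 0 in all 103 cells, and the 5 eosinophil markers had 6 UMIs in immature and 3 in mature cells, most of them from Il5ra. Of 6 progenitor markers, the sum was 218 CPM in immature and 18.3 CPM in mature cells, against 189 CPM in all other cells. The selection limited 3 of them, Mpo, Elane and Ctsg. This bears on the sum and on Prtn3 being the most abundant in immature cells.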

How the data were processed

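Spleen cells from 3 conditions were sequenced as 1 pool with the 10x 3′ v3.1 chemistry, with separate libraries for transcripts and hashtags. The deposited UMI counts were made by the authors with Cell Ranger (7.2.0 in the labels, 7.0.0 in the header of the matrix) on GRCm38, with no normalization, and the table holds 32285 genes and 4 hashtags. Seurat and FastQC are also named in the submitters' processing notes. The aligner settings are not given in the sources used here, and no deposited column was left without a sample.

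From these counts, cells were selected as described, and UMIs were summed per group and divided by the group's total (CPM). Genes with at least 50 UMIs over the neutrophils entered the counts of higher genes, at a ratio of at least 2. A group at 0 was set to a floor of 3 UMIs over the group. A gene at 0 in mature cells that met the minimum was therefore always at least 2-fold higher in immature cells. Levels carry exact 95% Poisson intervals, shares Clopper-Pearson intervals, and ratios conditional binomial intervals. These cover counting error only. Genes were named from 21 lists and 10 marker lists, and as the 10 highest and 10 lowest ratios of immature to mature, the 15 highest to all other cells, and the 5 highest and 5 lowest to cells with Mpo, Elane and Ctsg. Genes of the selection were left out of these rankings. The members and lists were chosen with earlier results of these data known. Doublets were not removed: Scrublet (scanpy 1.11.5, expected rate 0.1) marked 1336 of 16325 cells and 3 of the 103 neutrophils, and leaving these out is an alternative. Other alternatives were stricter cell filters, other limits for S100a8 and S100a9 and for Camp and Ngp, thinning to 1000 UMIs, means over cells, other totals, a lower gene minimum and leaving out each hashtag. BC100530, Gm5483 and Clec7a of the lists were not analysed here. Single values of some list genes are not reported here. The code was tested on simulated data. Python 3.11.15, NumPy 2.4.6, SciPy 1.17.1 and matplotlib 3.10.9 were used.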

Additional observations from a re-analysis of the deposited data

How the results depend on the processing

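The pool is 1 sample, so depth, the number of cells and the hashtags set the limits, and no replicate spread is known. No paired analysis was possible because the pool holds no replicates. The share of immature cells was 60.2% (50.1 to 69.7%), the genes at least 2-fold higher numbered 751 in immature and 836 in mature cells, and Il10 had 23.7 CPM. Leaving out 1 hashtag at a time, the share lay between 50% and 93.5%, the genes higher in immature cells between 163 and 692, those higher in mature cells between 681 and 1898, and Il10 between 17.4 and 26.6 CPM. Without hashtag 11 only 4 mature cells were left. In the cells of hashtag 11 alone, chosen after seeing the data, the share was 9.76%, 74 genes were higher in immature and 349 in mature cells of 811 measured, and Il10 had 35.95 CPM. Thinned to 1000 UMIs per cell, 53 and 72 of 260 genes passed, since fewer genes reached 50 UMIs. With a minimum of 20 UMIs, 1201 and 1489 of 5908 genes passed. Under the other alternatives the share stayed within its interval, between 57.3% and 64.6%, or at 67% where cells were thinned to 1000 UMIs and 1 UMI of Camp and Ngp was asked for in place of 5, Il10 within its own, between 17.5 and 30.9 CPM, and both gene counts within 1.5 times, between 637 and 1025 for immature and between 593 and 842 for mature cells.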

Other observations

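Among the 178 cells with at least 20 UMIs of S100a8 and S100a9, 43 held a UMI of Cd79a, Ms4a1, Cd3d, Cd3e or Ncr1. These cells were deep, with a median of 19037 UMIs, and 25 of them (58.1%) had at least 5 UMIs of Camp and Ngp, against 60.2% of the neutrophils. Of 12 further cells with Csf1r but no lymphoid UMI, 2 (16.7%) had as many. Among the cells with Mpo, Elane and Ctsg, 23 of 50 passed the limit of S100a8 and S100a9, and 14 of these 23 had at least 5 UMIs of Camp and Ngp. No explanation was tested for any of these cells.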
